A study of Mus musculus with 48 samples.

Results

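The genes of the interleukin-1 receptor family and its ligands were followed in sorted spleen cells on their way from monocytes to red pulp macrophages (RPMs), the iron-recycling macrophages of the spleen. The 10 genes, chosen by name out of the 54735 genes counted, encode the ligands IL-33 (*Il33*) and IL-18 (*Il18*), the ligand-binding receptor chains *Il1rl1*, *Il18r1*, and *Il1r1*, the accessory chains *Il1rap* and *Il18rap*, the decoy receptor *Il1r2*, the inhibitory receptor *Sigirr*, and the adaptor *Myd88*. RNA-seq was available from 24 libraries, in 6 groups of 4 mice each. They were made from monocytes (Ly6Glo CD11bhi F4/80-), RPM precursors (pre-RPMs, Ly6Glo CD11bhi F4/80lo), and RPMs (Ly6Glo CD11blo/- F4/80hi) of wild-type (WT) mice and of mice labelled IL1RL1-/-, all freshly sorted with no treatment named, on the Balb/c background, male, and 10 weeks old. By the mouse numbers of the labels, each mouse gave 1 library per cell type. The mutation was carried in the germline, so that no group separated an effect within the sorted cells from an effect elsewhere in the animal. The 24 chromatin accessibility samples of the study were not analysed here.

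Receptors of this family work in pairs. A ligand binds its own receptor chain, *Il1rl1* (also called ST2) for IL-33, *Il18r1* for IL-18, and *Il1r1* for IL-1α and IL-1β, and the complex then recruits an accessory chain, which is shared between the IL-33 and IL-1 receptors (*Il1rap*) and separate for IL-18 (*Il18rap*). The intracellular domains recruit MyD88, which starts the IRAK, NF-κB, and MAP kinase cascades, whereas *Il1r2* binds IL-1 without signalling and *Sigirr* dampens the receptors. IL-18 receptors are best known on NK cells and T cells, and ST2 on mast cells, basophils, regulatory T cells, and type 2 innate lymphoid cells.

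The total count on genes lay between 3562367 and 6559454 per library, of which the single gene *Gm42418* took 24.4% to 38.8%. Levels are given as CPM (counts scaled to a common library size), with TMM factors applied between libraries, and a count of 3, treated here as not told apart from 0, amounts to 0.457 to 0.842 CPM by total counts. Floors and counts cover counting error only. The RPM sorts followed their labels, since *Spic*, which defines RPMs, lay between 273 and 433 CPM in RPM libraries and at most 16.2 CPM in all others, and *Ccr2*, a monocyte chemokine receptor, lay at 149 CPM or more in all monocyte and pre-RPM libraries and at most 14.2 CPM in RPMs. The summed level of 8 monocyte markers, *Ccr2* among them, ranged from 635 to 1675 CPM in monocyte libraries and from 1461 to 1994 CPM in pre-RPM libraries. In RPM libraries it was 1374 to 1760 CPM, so that this sum did not single out the monocyte sort or set the RPMs apart. From pre-RPMs to RPMs, 7 of these 8 markers were called lower and 1 higher in each genotype. In monocyte libraries 8 neutrophil markers summed to 725 to 2441 CPM. All 8 NK cell markers examined (*Ncr1*, *Klrb1c*, *Klrk1*, *Prf1*, *Gzma*, *Gzmb*, *Nkg7*, and *Eomes*) had counts in every group. Their summed level lay between 567 and 2068 CPM in monocyte libraries, 36.4 and 171 CPM in pre-RPMs, and 14.3 and 57.8 CPM in RPMs. In RPMs, 7 erythroid markers summed to 1204 to 23592 CPM in WT and 816 to 15013 CPM with the label IL1RL1-/-. There 8 T cell markers summed to 42.0 to 89.9 CPM and 43.6 to 76.7 CPM, respectively. In bulk samples such as these, fewer cells of a type and less RNA per cell cannot be told apart.

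Transcripts of *Il33* were close to absent from all sorted cells. A single count was found in all 24 libraries together, in mouse 3 of RPMs labelled IL1RL1-/-, so that the gene stayed below the floor of 3 counts everywhere. Its cytokine is known mainly from stromal and endothelial cells and is released on cell damage. No level or difference of the *Il33* transcript was therefore detectable in these cells at this depth.

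*Il18*, whose product is made as a precursor and cut by caspase-1, was the expressed ligand among the members, and its level was highest in RPMs. Ligands outside the members are described below. Its level in WT mice 1 to 4 was 0.764, 0.599, 2.06, and 2.55 CPM in monocytes, 6.28, 1.58, 5.88, and 5.71 CPM in pre-RPMs, and 51.6, 41.3, 60.4, and 62.8 CPM in RPMs. With the label IL1RL1-/- it was 1.23, 4.41, 2.58, and 2.68 CPM in monocytes, 1.42, 4.41, 3.27, and 4.85 CPM in pre-RPMs, and 62.5, 53.8, 63.4, and 70.1 CPM in RPMs. All 8 RPM libraries lay above all 16 other libraries, whereas the monocyte and pre-RPM values overlapped in both genotypes. From pre-RPMs to RPMs, *Il18* rose by a log2 fold change of 3.40 (SE 0.25) in WT and 4.04 (SE 0.20) in libraries labelled IL1RL1-/-, with edgeR's adjusted p of 4.93e-08 and 1.26e-10. The genotype difference of this rise was 0.65 (SE 0.39, edgeR's adjusted p = 0.754). Within RPMs the mean was 54.0 ± 9.74 CPM in WT and 62.4 ± 6.69 CPM in libraries labelled IL1RL1-/- (SD, n = 4), and the groups overlapped (log2 fold change 0.20, SE 0.13, edgeR's adjusted p = 0.798). The earlier step in WT was 1.69 (SE 0.49, edgeR's adjusted p = 0.0420), which did not meet the adjusted p of 0.01 set for cell types but did when the 24 libraries were fitted together (adjusted p = 0.00650), and pre-RPM library 2 of WT stood below the other WT pre-RPMs.

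*Il1r1*, the signalling receptor of IL-1α and IL-1β, was the receptor chain gained by RPMs. In monocytes and pre-RPMs of either genotype its count did not exceed 5 in any library. In RPMs of WT mice 1 to 4 it reached 15.0, 11.4, 11.2, and 18.9 CPM, and in RPMs labelled IL1RL1-/- 4.93, 4.25, 4.82, and 5.75 CPM. Each RPM library thus lay above every monocyte and pre-RPM library, and each WT RPM library above each RPM library labelled IL1RL1-/-. The rise from pre-RPMs to RPMs was 4.73 (SE 0.48, edgeR's adjusted p = 1.41e-06) in WT and 2.73 (SE 0.34, edgeR's adjusted p = 4.97e-06) in libraries labelled IL1RL1-/-, on the log2 scale. The WT value rests on 0, 3, 5, and 0 counts in pre-RPMs, was 5.65 without WT pre-RPM library 3 and 4.31 without library 1, and is therefore loose in size. The difference between these rises was −1.99 (SE 0.77) and did not pass the test (edgeR's adjusted p = 0.531), nor did it without WT pre-RPM library 3, at −2.91. Within RPMs, the log2 fold change between genotypes was −1.53 (SE 0.21, edgeR's adjusted p = 0.00501). Means were 14.1 ± 3.64 CPM for WT and 4.94 ± 0.618 CPM for the libraries labelled IL1RL1-/- (SD, n = 4). *Pecam1* made up most of the summed level of 8 endothelial and stromal markers, which was 119 to 143 CPM in WT RPMs and 119 to 138 CPM in RPMs labelled IL1RL1-/-, while *Cdh5*, *Kdr*, *Col1a1*, and *Ccl19* had means under 1 CPM in RPMs. The rest of the list, *Col1a2*, *Pdgfra*, and *Pdgfrb*, exceeded 3 counts in at least 1 RPM library of each genotype. The part of such cells in the level of *Il1r1* was not tested.

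*Il1rl1*, the IL-33 receptor and the targeted gene, was counted in all libraries, and in monocytes and pre-RPMs its counts went against the genotype label. In WT mice 1 to 4 its level was 4.28, 3.79, 2.75, and 1.95 CPM in monocytes, 4.19, 3.94, 3.19, and 5.71 CPM in pre-RPMs, and 1.06, 1.83, 1.87, and 3.00 CPM in RPMs. In libraries labelled IL1RL1-/-, it was 12.5, 15.3, 15.3, and 13.2 CPM in monocytes, 11.8, 12.9, 12.5, and 12.1 CPM in pre-RPMs, and 0.224, 1.14, 0.658, and 1.28 CPM in RPMs. The libraries labelled IL1RL1-/- were thus all above WT in monocytes and pre-RPMs, whereas in RPMs the groups overlapped and 2 of the 4 libraries labelled IL1RL1-/- held 3 counts or fewer. The values are counts per gene over all annotated exons, reads were not assigned to single exons here, and the counts therefore do not show whether a deleted part was read. For this reason groups are named by their label throughout, and every direction between genotypes below is one between labels. The excess was 2.13 (SE 0.23) in monocytes and 1.52 (SE 0.20) in pre-RPMs on the log2 scale, with edgeR's adjusted p of 0.00882 and 0.00107. Without mouse 2 of the monocytes labelled IL1RL1-/-, the first was 2.09 and missed the threshold (edgeR's adjusted p = 0.0530). In WT, *Il1rl1* fell by 1.18 from pre-RPMs to RPMs on the log2 scale (SE 0.33, edgeR's adjusted p = 0.00869), a call lost on leaving out any 1 of 6 of the 8 libraries (adjusted p up to 0.0343) and with DESeq2 (adjusted p = 0.0135). With the label IL1RL1-/- it fell by 3.87 (SE 0.29, edgeR's adjusted p = 2.22e-08).

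The difference between these falls was tested as such and was −2.67 (SE 0.48, edgeR's adjusted p = 0.0197). In RPMs it rests on 5, 9, 7, and 13 counts in WT and 1, 7, 3, and 6 counts with the label IL1RL1-/-, near the floor, and is loose in size. Over all genes, 13 of 12150 (0.107%, with 0.0658% positive and 0.0412% negative) passed this test, and *Il1rl1* was the 1 of the 8 family members tested that did. With the mouse number as a block, 24 genes passed, and with the animal within its genotype as a block, chosen after seeing the data, 36 did, in both cases with *Il1rl1* (edgeR's adjusted p = 0.0125 and 0.0224). Without WT RPM library 4 or without library 3 of the RPMs labelled IL1RL1-/-, the value was −2.39 and −2.58 and missed the threshold (edgeR's adjusted p = 0.0674 and 0.0638). The genotype difference of the step from monocytes to pre-RPMs was −0.61 (SE 0.30, edgeR's adjusted p = 1.00). Basophil and mast cell markers, which mark cells known for ST2, were not higher with the label IL1RL1-/-. The summed level of 8 of them (*Mcpt8*, *Cpa3*, *Fcer1a*, *Ms4a2*, *Hdc*, *Gata2*, *Cma1*, and *Tpsb2*) was 37.9 to 111 CPM in WT monocytes and 33.2 to 82.2 CPM in monocytes labelled IL1RL1-/-. In pre-RPMs it was 13.4 to 60.1 CPM and 3.31 to 7.29 CPM, respectively, with *Fcer1a* at 0 in the latter and *Tpsb2* at 0 in both. *Gata2*, which is in this list, was lower in pre-RPMs labelled IL1RL1-/- (log2 fold change −3.01, SE 0.45, edgeR's adjusted p = 0.00328). Their part in the result was not tested.

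Upstream sequences are shown for 4 members, *Il1rl1* because it is the targeted gene, *Il18rap* because it moved with *Il18r1*, and *Il1r1* and *Il18* because both rose in RPMs. They are the 250 bases before the annotated start, from RefSeq (GRCm38.p6, the build of the counts), where 9 of the 10 members had an entry and the start furthest upstream is given. Windows that held annotated exons were not printed. Capitals mark matches on either strand to GATA motifs (AGATAA and its variant AGATAG, as well as these with another first letter, TGATAA and its variant TGATAG, with no overlap between motifs here), to a PU.1-type ETS motif (GAGGAAGT), or to AP-1 (TGANTCA).
Il1rl1, chr1:40429320-40429569, plus strand: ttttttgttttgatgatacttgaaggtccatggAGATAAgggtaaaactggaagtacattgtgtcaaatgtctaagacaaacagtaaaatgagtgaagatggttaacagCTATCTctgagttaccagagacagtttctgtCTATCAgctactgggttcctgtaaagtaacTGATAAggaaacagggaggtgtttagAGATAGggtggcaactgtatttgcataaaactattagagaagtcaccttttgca
Il18rap, chr1:40515112-40515361, plus strand: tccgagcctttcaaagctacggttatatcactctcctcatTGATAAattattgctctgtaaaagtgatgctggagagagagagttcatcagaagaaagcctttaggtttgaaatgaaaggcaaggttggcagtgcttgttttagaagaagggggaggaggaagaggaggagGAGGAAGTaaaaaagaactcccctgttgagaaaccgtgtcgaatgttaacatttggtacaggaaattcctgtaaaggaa
Il1r1, chr1:40224830-40225079, plus strand: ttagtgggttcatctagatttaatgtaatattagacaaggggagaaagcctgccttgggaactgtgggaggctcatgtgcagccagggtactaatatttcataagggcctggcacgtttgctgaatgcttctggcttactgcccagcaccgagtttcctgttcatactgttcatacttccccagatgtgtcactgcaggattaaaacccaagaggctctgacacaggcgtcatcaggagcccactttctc
Il18, chr9:50554450-50554699, plus strand: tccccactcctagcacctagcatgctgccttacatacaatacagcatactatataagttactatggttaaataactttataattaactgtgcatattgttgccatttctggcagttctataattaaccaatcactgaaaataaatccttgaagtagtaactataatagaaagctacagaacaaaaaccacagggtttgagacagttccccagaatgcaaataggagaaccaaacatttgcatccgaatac
The window of *Il1rl1* held 5 GATA matches and that of *Il18rap* 1, next to 1 match to the ETS motif, whereas those of *Il1r1* and *Il18* held none of the 3 motifs. Among 32851 windows of all genes, 26.5% held a GATA match, 0.0426% held 5 or more, 2.44% held the ETS motif, and 6.75% held AP-1. The cut of 5 was taken from the member window with the most matches, that of *Il1rl1*, so that its share is no test. Of the 14 windows of the 9 members, 4 held a GATA match, 1 the ETS motif, and 0 AP-1. A match is a description of the letters, and binding was not measured here.

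*Il18r1* and *Il18rap*, the 2 chains of the IL-18 receptor, were both highest in the monocyte sort. *Il18r1* stood at 129, 130, 36.9, and 79.9 CPM in WT monocytes, 9.54, 13.7, 14.0, and 11.4 CPM in WT pre-RPMs, and 4.66, 8.55, 2.94, and 3.00 CPM in WT RPMs. In libraries labelled IL1RL1-/-, it stood at 90.3, 61.4, 22.4, and 46.7 CPM, then 3.31, 3.39, 2.08, and 1.30 CPM, then 2.24, 0.981, 0.219, and 1.28 CPM. Monocyte groups overlapped, whereas in pre-RPMs and in RPMs every library labelled IL1RL1-/- lay below every WT library. The spread within the monocyte groups was wide, and mouse number 3 had the lowest value in both genotypes.

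*Il18rap*, the accessory chain that IL-18 needs to signal, stood at 234, 260, 97.3, and 161 CPM in WT monocytes, 18.1, 22.6, 21.1, and 18.8 CPM in WT pre-RPMs, and 4.44, 6.51, 3.21, and 3.00 CPM in WT RPMs. Mice labelled IL1RL1-/- had 186, 188, 82.9, and 131 CPM, then 3.55, 9.84, 8.04, and 7.64 CPM, then 2.02, 1.96, 0.877, and 2.56 CPM. As with *Il18r1*, the genotypes overlapped in monocytes and were apart in pre-RPMs and RPMs. From monocytes to pre-RPMs, *Il18r1* and *Il18rap* fell in WT, with log2 fold changes of −2.96 (SE 0.35) and −3.23 (SE 0.28), with edgeR's adjusted p of 0.000530 and 0.000200. With the label IL1RL1-/- the log2 fold changes were −4.42 (SE 0.45) and −4.31 (SE 0.31), with edgeR's adjusted p of 8.57e-05 and 4.31e-05. The genotype differences of these falls, −1.47 (SE 0.66) and −1.09 (SE 0.45), did not pass the test (edgeR's adjusted p = 1.00 for both, unadjusted p = 0.0402 and 0.0265). From pre-RPMs to RPMs, *Il18rap* fell further in both genotypes (−2.24, SE 0.22, and −2.02, SE 0.35), and so did *Il18r1* in WT (−1.35, SE 0.29), with edgeR's adjusted p of 8.71e-07, 0.000170, and 0.00153. The latter missed the threshold when the 24 libraries were fitted together (−1.30, edgeR's adjusted p = 0.0277). *Il18r1* had too few counts to be tested over this step in libraries labelled IL1RL1-/-.

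**Figure D1:**
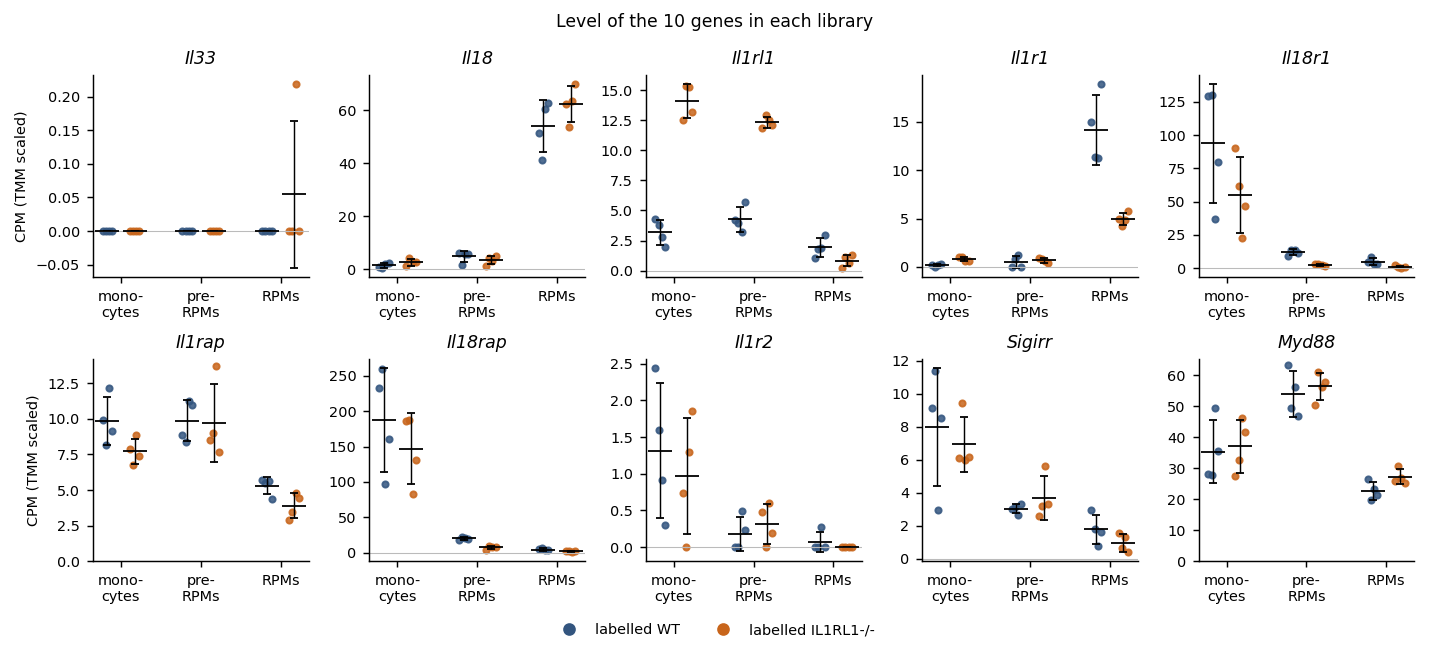
Level of each of the 10 genes in CPM scaled with TMM factors (vertical axes, linear, each with its own range) in monocytes, pre-RPMs, and RPMs; points are libraries, the bar is the mean, and whiskers are 1 SD (n = 4). *Il18* and *Il1r1* are high only in RPMs, *Il18r1* and *Il18rap* in monocytes, and *Il1rl1* lies higher in the libraries labelled IL1RL1-/- in monocytes and pre-RPMs.

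Between genotypes, *Il18r1* and *Il18rap* were lower in pre-RPMs labelled IL1RL1-/-, with log2 fold changes of −2.24 (SE 0.27) and −1.44 (SE 0.21), with edgeR's adjusted p of 0.000418 and 0.00280. When the 24 libraries shared 1 fit, neither passed (edgeR's adjusted p = 0.126 and 0.112). In RPMs, the differences were −2.05 (SE 0.50) and −1.22 (SE 0.36) and did not pass (edgeR's adjusted p = 0.200 and 0.390). Blocked by mouse number, which joins different animals across genotypes and is therefore not a pairing by animal, the former passed at −2.05 (edgeR's adjusted p = 0.0258). In monocytes they were −0.78 (SE 0.44) and −0.36 (SE 0.32), both with an adjusted p of 0.997 from edgeR, and with the block *Il18r1* passed at −0.78 (edgeR's adjusted p = 0.0232). NK cell markers moved with these genes, and 4 of the 7 tested in pre-RPMs, *Ncr1*, *Prf1*, *Gzma*, and *Gzmb*, were lower, with log2 fold changes from −2.19 to −1.94, where 0.383% of all genes were lower. Of 5 B cell markers, 2 were also lower there (median log2 fold change −1.05), whereas 0 of 5 neutrophil markers tested were called, with 5 at an unadjusted p under 0.05 from edgeR (median 0.73). The summed level of the 8 NK cell markers was 94.5 to 171 CPM in WT pre-RPMs and 36.4 to 72.1 CPM in pre-RPMs labelled IL1RL1-/-. Set against that sum library by library, *Il18rap* amounted to 12.6% to 15.3% in WT monocytes and 10.8% to 14.7% in monocytes labelled IL1RL1-/-, and to 13.2% to 19.9% and 9.74% to 20.4% in pre-RPMs, so that the genotypes overlapped. In RPMs its share was 9.68% to 12.9% in WT and 6.62%, 6.78%, 6.15%, and 13.3% in mice 1 to 4 labelled IL1RL1-/-, of which 3 lay below every WT library. *Il18r1* amounted to 5.81% to 7.25% of the NK sum in WT monocytes and 3.95% to 5.25% in monocytes labelled IL1RL1-/-, without overlap. In pre-RPMs the shares were 7.28% to 12.3% and 3.48% to 9.09%, which overlapped through a single library labelled IL1RL1-/-, and in RPMs 10.1% to 14.8% and 1.54% to 7.35%, which did not overlap. These shares were chosen after values were seen, rest on as few as 65 counts of NK cell markers in a library, and carry no test. The study's flow cytometry gated on NK1.1low cells, while the labels of these libraries name no NK1.1 gate. The part of NK cells in the levels of both genes was not tested.

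**Figure D2:**
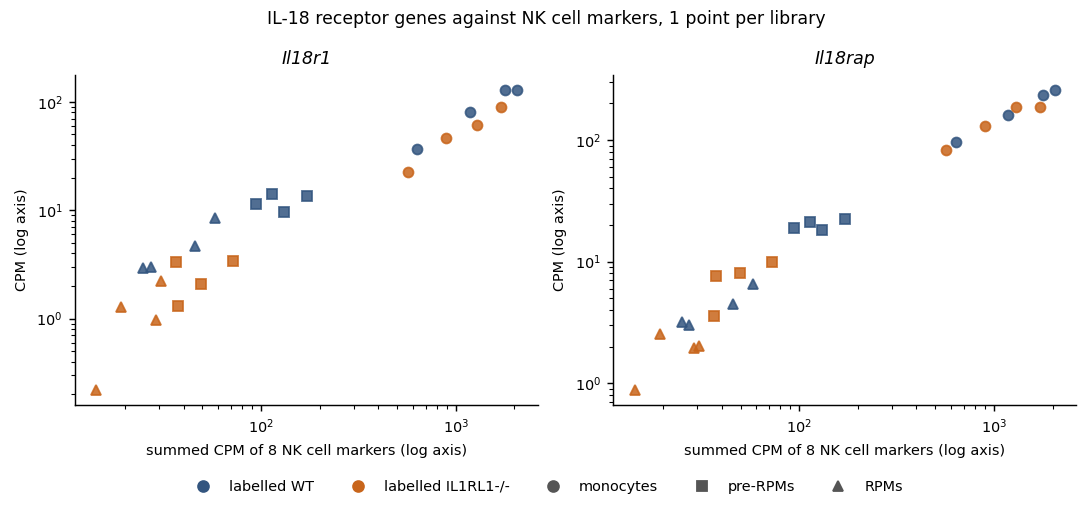
*Il18r1* (left) and *Il18rap* (right) in CPM against the summed CPM of 8 NK cell markers, both on log axes, with 1 point per library (circles monocytes, squares pre-RPMs, triangles RPMs). As a share of the NK sum, *Il18rap* overlaps between genotypes in monocytes and pre-RPMs and is below WT in 3 of the 4 RPM libraries labelled IL1RL1-/-, whereas *Il18r1* is below every WT library of its cell type in all libraries labelled IL1RL1-/- but 1 of the pre-RPMs.

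*Il1rap*, the accessory chain of the IL-33 and IL-1 receptors, was present above the floor in all 24 libraries. Its mean was 9.85 ± 1.69, 9.87 ± 1.46, and 5.30 ± 0.617 CPM in WT monocytes, pre-RPMs, and RPMs (SD, n = 4). In libraries labelled IL1RL1-/- it was 7.71 ± 0.884, 9.71 ± 2.71, and 3.91 ± 0.889 CPM (SD, n = 4). The genotypes overlapped in all 3 cell types, with log2 fold changes of −0.36 (SE 0.18), −0.06 (SE 0.20), and −0.45 (SE 0.24) and edgeR's adjusted p of 0.997, 0.970, and 0.737. In both genotypes every RPM library lay below every pre-RPM library. Among libraries labelled IL1RL1-/- *Il1rap* changed by −1.34 on the log2 scale (SE 0.25), which passed both thresholds (edgeR's adjusted p = 0.000286). In WT it was −0.94 (SE 0.20, edgeR's adjusted p = 0.00114), short of the log2 fold change of 1 set for cell types except without WT pre-RPM library 2 (−1.01), and the genotype difference of the fall was −0.39 (SE 0.31, edgeR's adjusted p = 0.856).

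*Il1r2*, the IL-1 decoy receptor, was near the floor. Its counts in WT monocytes were 16, 8, 4, and 2, in monocytes labelled IL1RL1-/- 3, 0, 6, and 9, and at most 2 in every pre-RPM and RPM library, so that it was tested nowhere. Neutrophils are known to carry this receptor, and the summed level of 8 neutrophil markers was 725 to 2441 CPM in monocyte libraries, 73.8 to 319 CPM in pre-RPMs, and 1.75 to 14.2 CPM in RPMs. Their part in the counts of *Il1r2* was not tested.

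*Sigirr*, the inhibitory receptor, had its highest group means in monocytes. In WT mice 1 to 4 it was 9.16, 11.4, 2.98, and 8.54 CPM in monocytes, 3.02, 3.15, 2.70, and 3.33 CPM in pre-RPMs, and 2.96, 1.83, 0.802, and 1.62 CPM in RPMs. Mice labelled IL1RL1-/- had 6.15, 9.46, 6.03, and 6.17 CPM, then 2.60, 3.22, 5.66, and 3.36 CPM, then 1.57, 0.654, 1.32, and 0.426 CPM. Monocyte library 3 was the one WT monocyte library within the range of the WT pre-RPMs. The step from monocytes to pre-RPMs was −1.40 (SE 0.36, edgeR's adjusted p = 0.0257) in WT and −0.94 (SE 0.27, edgeR's adjusted p = 0.0337) in libraries labelled IL1RL1-/-, and neither met the thresholds. Without WT monocyte library 3 the former was −1.65 and passed (edgeR's adjusted p = 0.000477), and with all libraries DESeq2 and the fit of the 24 libraries together called it (adjusted p = 0.00655 and 0.00512). That library had the lowest summed NK cell markers of the WT monocytes (636 CPM, against 1182 to 2068 CPM) and their highest summed monocyte markers (1565 CPM). The part of NK cells in the level of *Sigirr* was not tested. From pre-RPMs to RPMs *Sigirr* fell by 1.93 (SE 0.40, edgeR's adjusted p = 0.000731) in libraries labelled IL1RL1-/-, against −0.76 (SE 0.34, edgeR's adjusted p = 0.0805) in WT, and the difference of −1.15 (SE 0.56) did not pass (edgeR's adjusted p = 0.672). Between genotypes, *Sigirr* differed by −0.22 (SE 0.34) in monocytes and 0.24 (SE 0.30) in pre-RPMs, with edgeR's adjusted p of 0.997 and 0.883.

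*Myd88*, the adaptor that all signalling receptors of the family use, peaked in pre-RPMs. Its mean in WT was 35.3 ± 10.2 CPM in monocytes, 54.0 ± 7.38 CPM in pre-RPMs, and 22.7 ± 2.87 CPM in RPMs, and in libraries labelled IL1RL1-/- 37.1 ± 8.45, 56.5 ± 4.43, and 27.3 ± 2.48 CPM (SD, n = 4). All pre-RPM libraries lay above all RPM libraries, and the log2 fold change was −1.29 (SE 0.13) in WT and −1.10 (SE 0.10) in libraries labelled IL1RL1-/-, with edgeR's adjusted p of 1.28e-06 and 1.97e-07. The preceding rises, 0.62 (SE 0.19) and 0.61 (SE 0.15), were below the fold threshold and had edgeR's adjusted p of 0.0477 and 0.0149. The genotypes overlapped in all 3 cell types, with log2 fold changes of 0.07 (SE 0.22), 0.07 (SE 0.11), and 0.26 (SE 0.12) and edgeR's adjusted p of 0.997, 0.923, and 0.684.

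Counted over the family, genotype differences passed an adjusted p of 0.05 in monocytes for 1 of the 7 members tested (*Il1rl1*, higher), against 0.0614% of all genes tested (0.0438% higher and 0.0175% lower). In pre-RPMs they numbered 3 of 7, *Il1rl1* higher and *Il18r1* and *Il18rap* lower, against 0.552% of all genes (0.168% higher and 0.383% lower). In RPMs they numbered 1 of 6 (*Il1r1*, lower), against 0.233% of all genes (0.152% higher and 0.0807% lower). The 3 members called in pre-RPMs lie side by side on chromosome 1, and *Il1rl1* is the gene that was targeted. With the mouse number as a block, 2 members and 27 genes were called in monocytes and 2 members and 81 genes in RPMs, *Il18r1* being the member added in both. That block joins different animals across genotypes, and the labels do not say whether equal numbers share a batch. The comparisons of cell types share the pre-RPM libraries, and there a call required both an adjusted p below 0.01 and a log2 fold change beyond 1 in either direction. From monocytes to pre-RPMs, 2 of 7 members were called in WT and 2 of 7 in libraries labelled IL1RL1-/-, in both cases *Il18r1* and *Il18rap*, which were lower, against 3.57% of all genes called in WT (0.316% higher and 3.25% lower) and 4.85% in libraries labelled IL1RL1-/- (0.974% higher and 3.88% lower). From pre-RPMs to RPMs, 6 of 8 were called in WT, 2 higher and 4 lower, against 24.7% of all genes called (14% higher and 10.7% lower). With the label IL1RL1-/- this was 7 of 7, 2 higher and 5 lower, against 26% of all genes called (14.5% higher and 11.5% lower). *Il18* and *Il1r1* were the 2 that rose in both genotypes. The difference of the step from monocytes to pre-RPMs between genotypes was called for 0 of 7 members and 0% of all genes with edgeR and for 0 members with DESeq2, and 2 had an unadjusted p under 0.05 with edgeR.

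**Figure D3:**
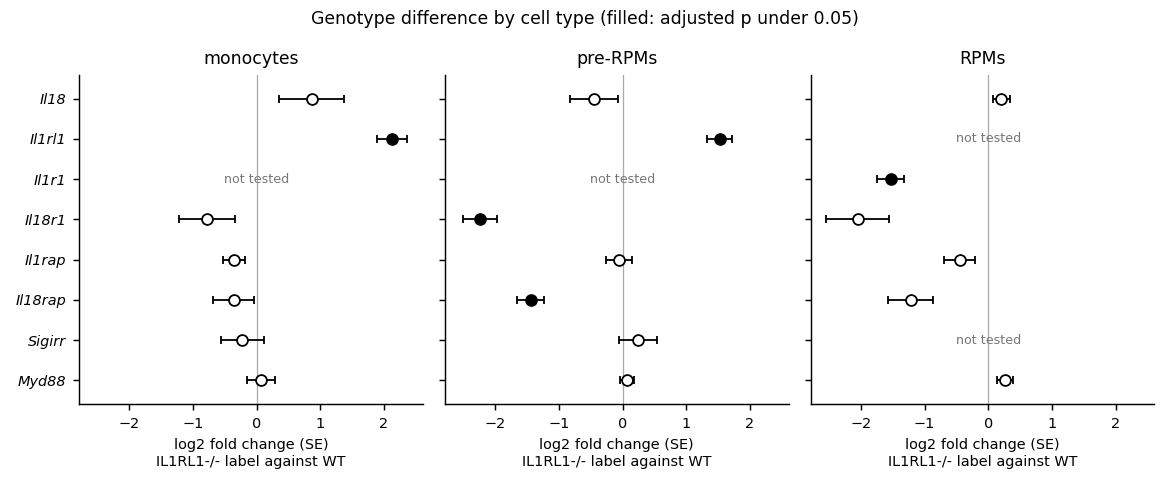
Log2 fold change of the libraries labelled IL1RL1-/- against WT (horizontal axis, whiskers are the SE of edgeR's fit) by cell type, for the 7, 7, and 6 members tested in monocytes, pre-RPMs, and RPMs out of the 8 drawn; filled points passed an adjusted p of 0.05 and *Il33* and *Il1r2*, tested nowhere, are left out. *Il1rl1* lies at 2.13 and 1.52 in monocytes and pre-RPMs, *Il18r1* and *Il18rap* lie left of 0 in all 3 cell types, and *Il1r1* at −1.53 in RPMs.

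Of the 10 genes, 5 sit in 1 cluster on chromosome 1, all on the plus strand. In GRCm38, *Il1r2* lies from 40074079 to 40125231, *Il1r1* from 40225080 to 40317257, *Il1rl1* from 40429570 to 40465415, *Il18r1* from 40465552 to 40500854, and *Il18rap* from 40515362 to 40551705. *Il18r1* starts 137 bases after the end of *Il1rl1*, and no exon base of any of the 10 genes is shared with another gene on the same strand, the strand by which reads were counted. The remaining members are spread over chromosome 7 (*Sigirr*, from 141091175 to 141100572), chromosome 9 (*Il18*, from 50554827 to 50581840, and *Myd88*, from 119335934 to 119341411), chromosome 16 (*Il1rap*, from 26581704 to 26730117), and chromosome 19 (*Il33*, from 29925114 to 29960718). In pre-RPMs *Il1rl1* was higher in the libraries labelled IL1RL1-/-, and the next 2 genes downstream, *Il18r1* and *Il18rap*, were lower. In RPMs no such change of sign was seen, and in the fit to all genes with at least 1 count the log2 fold changes were −1.50 for *Il1r1*, −1.14 for *Il1rl1*, −2.02 for *Il18r1*, and −1.19 for *Il18rap*, of which edgeR called the first and the third. *Il1rl2*, the IL-36 receptor and the neighbour upstream, was named after its values were seen. It was at least 3.60-fold higher in pre-RPMs labelled IL1RL1-/- (16, 18, 5, and 12 counts) than in WT, where no library exceeded 3 counts. In monocytes its log2 fold change was 1.29 (SE 0.32) and did not pass (edgeR's adjusted p = 0.775), although every library labelled IL1RL1-/- lay above every WT library. *Il1r1*, the next gene upstream, had 4, 5, 3, and 3 counts in monocytes labelled IL1RL1-/- and 1, 0, 1, and 2 in WT, near the floor. *Slc9a2*, further downstream and also named afterwards, had means of 0.871 ± 0.520 CPM in WT pre-RPMs and 1.18 ± 0.664 CPM in pre-RPMs labelled IL1RL1-/- (SD, n = 4), which overlapped. The order of the genes is that of the reference genome, and the structure of the targeted allele was not analysed here.

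**Figure D4:**
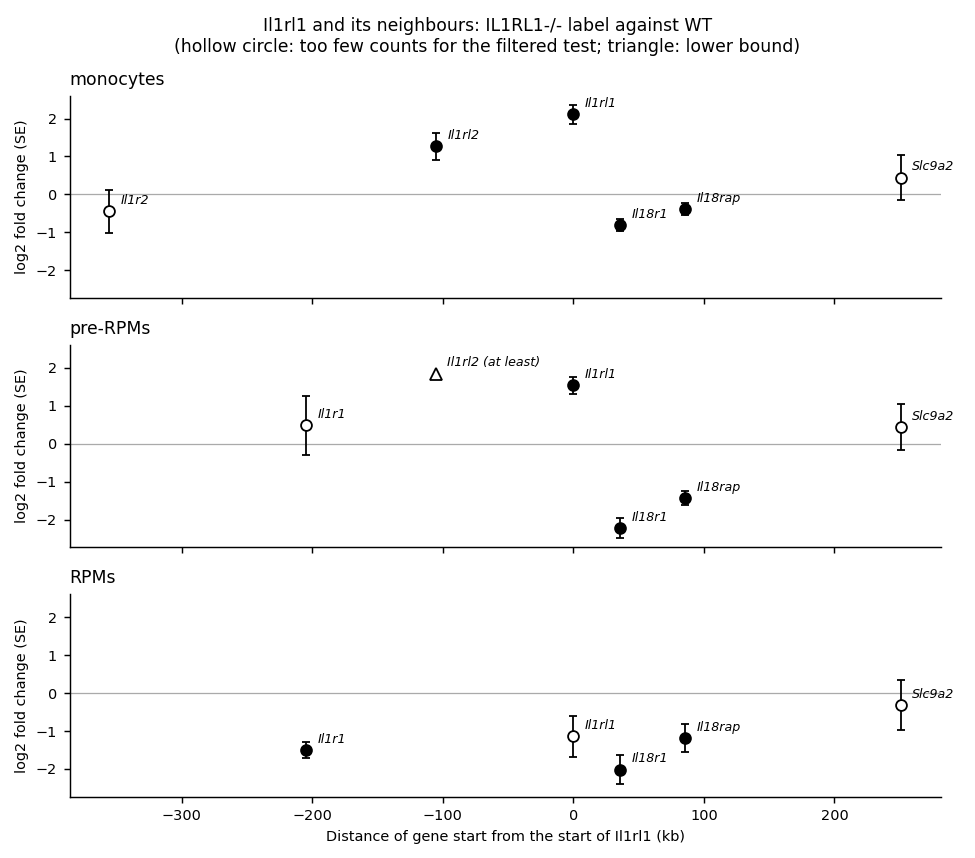
Log2 fold change of the libraries labelled IL1RL1-/- against WT (vertical axis, whiskers are the SE) by distance of the gene's start from that of *Il1rl1* (horizontal axis, kb), from a fit to all genes with at least 1 count. Hollow circles had too few counts for the filtered test, the triangle is a lower bound, and genes with a group at 3 counts or fewer in all libraries are otherwise left out. *Il1rl1* lies above 0 in monocytes and pre-RPMs and *Il18r1* and *Il18rap* lie below 0 in all 3 cell types.

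Of 12 further ligands, antagonists, and receptors of the family, 4 or fewer had enough counts for any one test. From pre-RPMs to RPMs, *Il1a*, a ligand of *Il1r1*, was at least 16.0-fold higher in RPMs in WT and at least 16.2-fold higher in libraries labelled IL1RL1-/-, reaching 11.8 ± 3.06 and 10.8 ± 3.43 CPM (SD, n = 4). *Il18bp*, the soluble antagonist of IL-18, rose by 1.97 (SE 0.28) and 2.92 (SE 0.26) on the log2 scale, with edgeR's adjusted p of 3.89e-05 and 1.50e-07. *Il1rn*, the IL-1 receptor antagonist, was at least 13.2-fold and 9.71-fold lower in RPMs, where it had at most 2 counts per library. *Il1b*, the other ligand of *Il1r1*, did not pass over this step, with log2 fold changes of −0.15 (SE 0.20) and −0.36 (SE 0.22). Between genotypes, 4, 2, and 3 of the 12 were tested in monocytes, pre-RPMs, and RPMs and 0 were called with edgeR, with 1, 2, and 0 at an unadjusted p under 0.05. *Il1rl2*, which is among the 12, had too few counts for that test in pre-RPMs and was called there when every gene with at least 1 count was tested (edgeR's adjusted p = 0.000162).

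Of 26 genes that act below MyD88, 7 were called lower in RPMs than in pre-RPMs and 0 higher, in WT (against 10.7% lower and 14% higher of all genes) and likewise in libraries labelled IL1RL1-/- (against 11.5% and 14.5%), at an adjusted p of 0.01 and a log2 fold change of 1. Smaller positive differences passed the adjusted p but not the fold, *Tab3* in WT (0.93) and *Irak1* and *Ikbkg* in libraries labelled IL1RL1-/- (0.39 and 0.52). The median log2 fold change of the 26 was −0.51 in WT and −0.50 in libraries labelled IL1RL1-/-, against −0.001 and −0.002 over all genes tested. *Peli2*, an E3 ubiquitin ligase of the IRAK complex, changed by −3.62 (SE 0.29) and −5.10 (SE 0.31) on the log2 scale in WT and in libraries labelled IL1RL1-/-. Its counts in RPMs were 3, 9, 4, and 8 in WT and 6, 2, 1, and 3 with the label IL1RL1-/-, near the floor, so that both sizes are loose. *Ikbkb*, the catalytic IκB kinase β, changed by −1.74 (SE 0.12) and −1.86 (SE 0.09). *Nfkb1*, an NF-κB subunit, changed by −1.30 and −1.47, its target and cofactor *Nfkbiz* by −1.34 and −1.76, the kinase *Map2k1* by −1.59 and −1.54, and its substrate *Mapk3* by −1.45 and −1.73. From monocytes to pre-RPMs, 0 of the 26 were called in either genotype with edgeR, and 7 and 15 had an unadjusted p under 0.05. Between genotypes 0 were called with edgeR, and 0, 1, and 1 had an unadjusted p under 0.05 in monocytes, pre-RPMs, and RPMs.

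Levels of different genes were compared per kb of exon, as CPM per kb. In WT monocytes the order was led by *Il18rap* (27.9 ± 10.9), *Il18r1* (19.5 ± 9.26), and *Myd88* (13.7 ± 3.95), in WT pre-RPMs by *Myd88* (21.0 ± 2.87) and *Il18* (4.72 ± 2.14), and in WT RPMs by *Il18* (52.4 ± 9.45), *Myd88* (8.82 ± 1.11), and *Il1r1* (2.22 ± 0.572), as CPM per kb ± SD (n = 4). *Il1rl1* stood at 0.463 ± 0.152, 0.617 ± 0.154, and 0.281 ± 0.116 CPM per kb in WT monocytes, pre-RPMs, and RPMs (SD, n = 4), next to 0.867 ± 0.149, 0.869 ± 0.128, and 0.467 ± 0.0543 for its partner chain *Il1rap*. By mean CPM over the 6 groups, *Il1rl1* was highest in monocytes labelled IL1RL1-/- and *Il18r1* and *Il18rap* in WT monocytes. *Il18* was highest in RPMs labelled IL1RL1-/- and *Il1r1* in WT RPMs, but *Il18* overlapped between the RPM groups, and of these 5 genes only *Il1r1* had a leading group that lay apart from the next.

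The genes whose log2 CPM followed a member most closely over the 24 libraries were, for *Il18r1*, *Gzmb* (Pearson r = 0.984), *Gem*, and *Ccl5*, and for *Il18rap*, *Gzma* (r = 0.988), *Osbpl3*, and *Klri2*. For *Il18* they were *Creg1* (r = 0.977), *Glul*, and *Abcc3*, for *Il1r1* *Gpd1* (r = 0.944), *Ddrgk1*, and *Acot11*, and for *Il1rl1* *Foxn3* (r = 0.853), *Dennd4a*, and *Itpr1*. *Il1rap* was closest to *Sh2b2* (r = 0.907), *Sigirr* to *AU020206* (r = 0.936), and *Myd88* to *Pfkfb4* (r = 0.968), each the highest of 11658 genes. Between *Il18r1* and *Il18rap* themselves r was 0.964, and between *Il18* and *Il1r1* 0.869. These values describe the 24 libraries, which fall into 3 cell types and, by mouse number, share animals, and they carry no test.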

How the data were processed

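RNA-seq counts of 24 libraries were analysed, 4 mice for each of 3 cell types and 2 genotypes, each library made from sorted cells of a single mouse. Reads were trimmed by the authors (cutadapt) and aligned (STAR 2.5.1), and featureCounts 1.6.2 assigned read pairs to exons by gene name, counting by strand on the GRCm38 annotation of Ensembl release 95, per the file headers, while the labels name GRCh38. The deposited values are raw counts per gene, not normalized, between 3562367 and 6559454 in total per library.

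The tests between groups used edgeR 4.0.16 in R 4.3.3 (TMM, filterByExpr, quasi-likelihood F test, Benjamini-Hochberg adjustment over all genes tested), and the SE was derived from the F statistic. Thresholds were an adjusted p of 0.05 between genotypes and for differences of changes, and an adjusted p of 0.01 with an absolute log2 fold change of 1 between cell types. Log2 CPM for correlations used a prior count of 2, and TMM factors lay between 0.797 and 1.38.

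The members, marker lists, and gene lists were chosen with earlier results of these data known. All members are described, and from other lists up to 6 called genes with the largest fold change per comparison, together with the 3 genes closest to each member in Pearson r. Mouse numbers were read as the same animal across cell types of a genotype, and they mark different animals across genotypes. Within a genotype, same-numbered libraries of neighbouring cell types correlated positively and best with their own number, except WT mouse 1 from monocytes to pre-RPMs (r = −0.0394). The main tests between cell types did not use this pairing and treated the libraries as independent. Deviations of same-numbered libraries of the genotypes correlated positively in each of the 4 pairs in monocytes (r from 0.118 to 0.452), pre-RPMs (0.0452 to 0.155), and RPMs (0.149 to 0.182). In pre-RPMs each library correlated best with the one of its own number, whereas in monocytes and RPMs not all did. Alternatives were DESeq2 1.42.0, RLE size factors, all genes with at least 1 count, a single fit of 24 libraries, the mouse number as a block, each library left out in turn, and CPM without TMM factors, with or without *Gm42418*.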

Additional observations from a re-analysis of the deposited data

Results flagged for a closer look

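In groups of 4, a library was singled out where its gap to the nearest other, divided by the range of the group, exceeded Dixon's 95% critical value. Of 54 groups tested, 5 held such a library, and chance gives about 1 in 20. *Il1rap* was lowest in WT RPM library 4, at 4.39 CPM. *Il1r2* in WT RPM library 3 (0.267 CPM) and *Il33* in library 3 of the RPMs labelled IL1RL1-/- (0.219 CPM) each rest on 1 count. *Il18* was lowest in WT pre-RPM library 2, at 1.58 CPM, with the other WT pre-RPM libraries between 5.71 and 6.28 CPM. *Sigirr* was highest in monocyte library 2 labelled IL1RL1-/-, at 9.46 CPM. The change of *Il1rl1* from pre-RPMs to RPMs differed between genotypes, with an interaction of −2.67 on the log2 scale from edgeR (adjusted p = 0.0197). It rests on 1 to 7 counts per library in RPMs labelled IL1RL1-/-.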

How the results depend on the processing

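RLE size factors changed the call of no member. Genes called between genotypes in monocytes, pre-RPMs, and RPMs, 7, 59, and 26, numbered 139, 265, and 272 when every gene with at least 1 count was tested, 27, 145, and 81 with the mouse number as a block, 16, 17, and 26 in a single fit, and 23, 80, and 48 with DESeq2. Members called in monocytes numbered 2 with every gene tested or with the block, in pre-RPMs 1 in the single fit, and in RPMs 2 with every gene tested, the block, or DESeq2. From monocytes to pre-RPMs in WT, DESeq2 called 660 genes, the test of every gene 1094 and the single fit 772, both of the latter with 4 members (*Il18* and *Sigirr* added), and in libraries labelled IL1RL1-/- the test of every gene called 1060. The difference of this step between genotypes gave 78 genes and 2 members with every gene tested (*Il18r1* −1.44 and *Il18rap* −1.06), where that of *Myd88* turned to 0.0138. The difference of the later step gave 37 genes with DESeq2, 224 with every gene tested, 3 in the single fit, 24 with the block, and 36 with the animal within its genotype as a block, an alternative chosen after seeing the data. Among the members, the block changed no call other than those of *Il18r1* in monocytes and RPMs. The mouse numbers do not pair the genotypes by animal. Same-numbered libraries of the genotypes nevertheless correlated positively in every cell type, and in pre-RPMs all 4 correlated best with the one of their own number. The labels do not say whether equal numbers share a batch, and this was not tested.

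Leaving out each library in turn, members called ranged from 0 to 1 in monocytes and for the later difference. Genes called ranged from 1 to 8 in monocytes, 37 to 68 in pre-RPMs, 169 to 1041 (WT) and 336 to 813 (labelled IL1RL1-/-) from monocytes to pre-RPMs. Signs turned for values near 0, namely *Myd88* in monocytes (−0.0581 to 0.28) and in the difference of the earlier step (−0.22 to 0.11), *Il1rap* in pre-RPMs (−0.24 to 0.0463) and from monocytes to pre-RPMs in WT (−0.0672 to 0.12), and *Il18r1* in the difference of the later step (−0.25 to 0.65). The lowest and highest counts from monocytes to pre-RPMs in WT came without WT pre-RPM library 4 and without WT monocyte library 3, those with the label IL1RL1-/- without its monocyte libraries 2 and 3, and the lowest in pre-RPMs without WT library 1. Without TMM factors, 2 of 60 group means moved by more than 1 SD, and 36 also without *Gm42418*. Taking that gene, 24.4% to 38.8% of the counts, out of the total raises every CPM by construction. The 36 are therefore no measure of how differences between groups held. The causes of the other changes were not tested. Members with few counts, such as *Il33*, *Il1r2*, and *Il1rl1* in RPMs, are limited by depth.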
